A study of Mus musculus with 5 samples.

Results

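Sialyltransferases are the Golgi enzymes that attach sialic acid to the ends of glycans, and 9 of them were followed here across the T cells of injured mouse kidneys: St3gal1, St3gal4, St3gal6, St6gal1, St6galnac3, St6galnac6, St8sia1, St8sia4 and St8sia6. They are 9 of the 31053 genes in the deposited tables and 9 of 20 sialyltransferase symbols listed there, and each matched 1 row. The genes were picked by name with their raw UMI counts per library and per cell gate in these data known. Their levels, the differences between gates and the differences between genotypes are therefore a description, and the p-values below give the size of a difference against the spread between libraries and no independent support.

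The series addressed the role of regulatory T cells (Tregs) that carry ST2, the receptor for IL-33, after kidney injury. CD4 T cells were sorted from kidneys of 10-week-old mice after unilateral ischemia-reperfusion injury, in which the blood flow to the kidney is stopped and restored, and read as 3′ single-cell RNA libraries. The 2 control libraries came from Il1rl1fl/fl mice, in which loxP sites flank part of Il1rl1, the ST2 gene. The 3 knockout libraries carry Foxp3YFP-Cre besides Il1rl1fl/fl. Cre is then made from the Foxp3 locus and acts in Foxp3-expressing cells. All 5 libraries thus carry the floxed allele and the injury, no uninjured kidney was analysed here, and the Foxp3YFP-Cre allele is in the knockout group alone, so its effect and that of Il1rl1 loss cannot be told apart. Whether each library is 1 animal is not stated, so the p-values measure the spread between these libraries, which may be technical in part.

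Sialic acid is made in the cytosol and nucleus, activated to CMP-sialic acid, carried into the Golgi and transferred there. The enzymes are named for the sugar they extend: the ST3Gal and ST6Gal enzymes act on galactose, the ST6GalNAc enzymes on N-acetylgalactosamine, and the ST8Sia enzymes on a sialic acid already in place. On T cells these caps shape the ligands of selectins, which slow cells on vessel walls, the ligands of Siglecs, which are mostly inhibitory receptors, and the access of galectins to galactose.

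Retained cells numbered 38417 of 40778 barcodes (4241 to 10320 per library), with a median of 3786 to 13534 UMIs per cell and 31104939 to 152275841 UMIs per library, both highest in control replicate 1. A set of 4 gates was drawn by UMIs of the marker genes alone. Foxp3-positive cells had a Foxp3 UMI (807, 627, 315, 863 and 383 cells in control replicates 1 and 2 and knockout replicates 1, 2 and 3, the order used for all 5 values below). Cd4 cells without a Foxp3 UMI were split into Cxcr6-positive cells (4145, 2419, 2101, 4589 and 1909) and Cxcr6-negative cells (3272, 3364, 1041, 2540 and 1598). CD8 cells had UMIs of both Cd8a and Cd8b1 (329, 90, 70, 167 and 63). Of them, 502 were also in another gate, and 54.4 to 74.6% also had a Cd4 UMI. The fits of CD8 against Foxp3-negative Cd4 cells left out the cells that met both. They rest on 143, 50, 30, 81 and 28 CD8 cells, of which 50, 17, 7, 28 and 13 had a Foxp3 UMI, while levels are given for the whole gate. Removal of cells with 2 or more UMIs of non-T markers, an alternative used below, left 41, 22, 8, 24 and 9 CD8 cells in these fits. Non-T markers were the lists for B cells, macrophages, monocytes and dendritic cells (Ly6c2, Ccr2, Cd209a, Flt3 and Itgax) and tubule cells. In control replicate 1 the removal kept 1429 of 4145 Cxcr6-positive and 2463 of 3272 Cxcr6-negative cells. It thus took the gates unevenly and is no check of contamination alone. Cxcr6 encodes a chemokine receptor of tissue-homing effector and memory T cells. Foxp3, Cd4, Cxcr6, Cd8a and Cd8b1 drew the gates and are no result. The marker lists matched the names of the Foxp3-positive gate and the 2 Cd4 gates. The summed level of 5 Treg markers (Foxp3, which drew the gate, among them) was 2063 to 2922 CPM (UMIs scaled to a sum of 1000000 per gate and library) in Foxp3-positive cells against 301 to 417 in Cxcr6-positive Cd4 cells. That of 4 naive-cell markers (Ccr7, Lef1, Tcf7 and Satb1) was 1074 to 2074 in Cxcr6-negative against 562 to 807 in Cxcr6-positive Cd4 cells. The CD8 gate was mixed, with summed Treg markers at 550 to 799 CPM. In the CD8 cells of the fits these markers reached 896 to 1337 CPM, against 320 to 434 in the Foxp3-negative Cd4 cells compared with them. Macrophage markers were detected in every gate, at 160.0 to 1031 CPM in Foxp3-positive cells. The monocyte and dendritic list stood at 307 to 411 CPM in Cxcr6-positive, 166 to 201 in Cxcr6-negative and 480 to 571 in CD8 cells of the controls. Whether T cells make these transcripts themselves was not tested. Il1rl1 UMIs were not lower in every knockout library: the level in Foxp3-positive cells was 74.2 and 54.8 CPM (controls) and 128, 53.9 and 51.6 CPM (knockouts). In Cxcr6-positive Cd4 cells it was 9.66 and 7.64 CPM (controls) and 56.8, 37.1 and 25.1 CPM (knockouts). Which exons the floxed allele removes is not given in the sources used here, so a 3′ tag count need not fall and does not check the genotype. Pairs of libraries shared 2 to 39 barcodes, at most 0.384% of the smaller library.

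Start-site windows of the members whose Cxcr6-linked difference depended on Foxp3, as given further below, are shown so that their base composition can be compared. The windows run from 250 bases before to 50 bases after an annotated start site (RefSeq, GRCm38.p6) and were found for 8 of the 9 members, in 11 windows. They belong to St8sia6 (chr2:13793471-13793770, minus strand), St8sia1 (chr6:142964403-142964702, minus strand), St6galnac3 (chr3:153725084-153725383, minus strand) and both annotated starts of St3gal6 (chr16:58524204-58524503, minus strand, and chr16:58523377-58523676, minus strand). Capitals mark a GC box, GGGCGGG on either strand.
St8sia6: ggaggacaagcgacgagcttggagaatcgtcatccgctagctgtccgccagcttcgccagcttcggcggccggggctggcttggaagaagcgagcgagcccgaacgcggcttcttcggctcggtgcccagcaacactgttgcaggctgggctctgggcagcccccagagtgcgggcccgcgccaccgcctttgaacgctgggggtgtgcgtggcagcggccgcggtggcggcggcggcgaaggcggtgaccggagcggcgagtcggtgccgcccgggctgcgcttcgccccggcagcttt
St8sia1: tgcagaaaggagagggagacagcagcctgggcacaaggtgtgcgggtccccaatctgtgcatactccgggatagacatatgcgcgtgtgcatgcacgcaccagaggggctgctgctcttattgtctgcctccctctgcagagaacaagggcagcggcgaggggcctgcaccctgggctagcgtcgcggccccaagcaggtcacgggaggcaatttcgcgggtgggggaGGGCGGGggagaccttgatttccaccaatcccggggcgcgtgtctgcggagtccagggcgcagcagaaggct
St6galnac3: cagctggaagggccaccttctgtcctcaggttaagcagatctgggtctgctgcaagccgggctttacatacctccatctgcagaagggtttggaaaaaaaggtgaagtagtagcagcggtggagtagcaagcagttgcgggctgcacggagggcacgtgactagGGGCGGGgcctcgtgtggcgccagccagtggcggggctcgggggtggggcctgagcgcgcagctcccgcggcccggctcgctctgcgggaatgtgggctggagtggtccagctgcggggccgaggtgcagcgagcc
St3gal6, first window: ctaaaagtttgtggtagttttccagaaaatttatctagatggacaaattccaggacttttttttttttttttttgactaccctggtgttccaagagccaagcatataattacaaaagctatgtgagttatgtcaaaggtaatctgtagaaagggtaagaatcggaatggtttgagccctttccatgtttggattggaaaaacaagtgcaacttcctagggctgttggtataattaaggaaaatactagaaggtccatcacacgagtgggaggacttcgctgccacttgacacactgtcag
St3gal6, second window: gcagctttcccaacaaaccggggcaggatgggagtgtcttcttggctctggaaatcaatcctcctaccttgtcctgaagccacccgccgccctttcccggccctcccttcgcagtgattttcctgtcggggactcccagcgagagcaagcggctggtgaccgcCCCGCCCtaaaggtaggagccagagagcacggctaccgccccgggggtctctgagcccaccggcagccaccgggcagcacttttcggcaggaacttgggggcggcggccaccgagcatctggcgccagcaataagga

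The windows of St8sia6, St8sia1 and St6galnac3 and the second window of St3gal6 were rich in CpG, with 39, 19, 20 and 20 CpG dinucleotides, and the first window of St3gal6 held 3, where the median of all 32851 windows is 7. On both strands, 5 sets of letters were searched: CTTTGAT (TCF/LEF), GGTGTGA (T-box), TGTTTAC (forkhead), CCGGAAG (ETS) and GGGCGGG (GC box), which do not overlap each other in these windows. They stand in 3.73%, 3.98%, 3.65%, 8.86% and 25.6% of all windows. A GC box was found once each in the windows of St6galnac3, St8sia1 and the second start of St3gal6 and at 3 places in that of St3gal4, and the forkhead letters once in that of St6galnac6. The windows of St8sia6, St8sia4 and St6gal1 (at 3 starts) held none of the 5, which says only that these letters are not there.

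**Figure D1:**
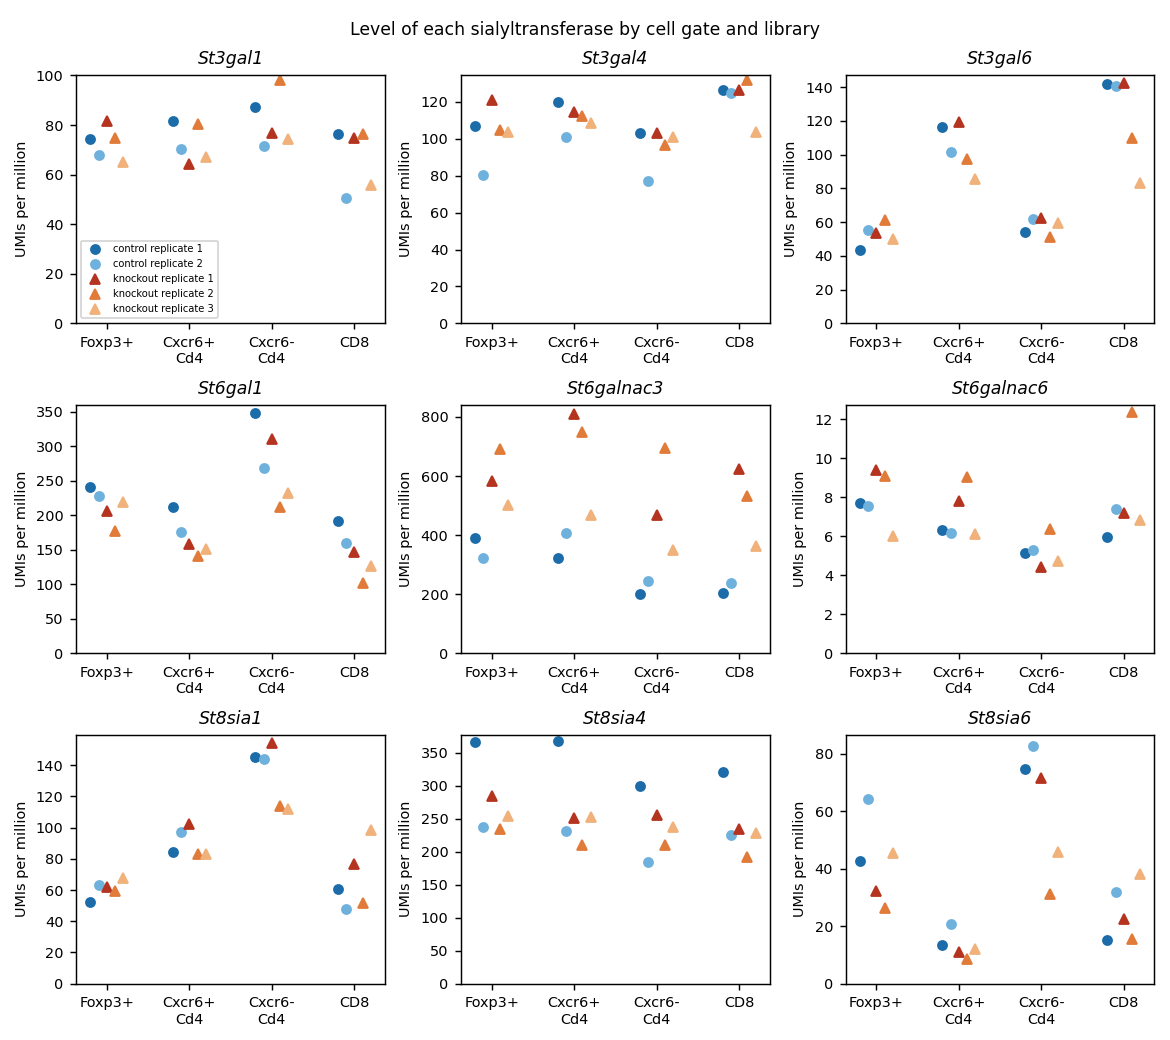
Level of each of the 9 sialyltransferases, in CPM (vertical axes from 0), in 4 cell gates (horizontal axis), with 1 point per library (circles, 2 controls; triangles, 3 knockouts). St8sia6 and St8sia1 sit highest in Cxcr6-negative Cd4 cells, St3gal6 in Cxcr6-positive Cd4 and CD8 cells, and the St6galnac3 triangles lie above the circles in every gate.

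Among the enzymes that extend sialic acid itself, St8sia6, which makes disialic acid caps, mainly on O-glycans, had the largest Cxcr6-linked difference of the 9. Its level was 74.7, 82.9, 71.6, 31.1 and 45.9 CPM in Cxcr6-negative Cd4 cells of the 5 libraries and 13.5, 20.9, 10.98, 8.59 and 12.1 in Cxcr6-positive Cd4 cells. Each library was lower on the Cxcr6-positive side, at 0.153 to 0.276 of the Cxcr6-negative level. This is a difference larger than the spread between libraries (edgeR quasi-likelihood test with library as a term, log2 fold -2.27, SE 0.12, adjusted p = 8.41e-06). Foxp3-positive cells lay between them at 42.9, 64.3, 32.3, 26.5 and 45.6 CPM, above the Cxcr6-positive cells in all 5 libraries and close to the Cxcr6-negative cells in knockout replicates 2 and 3. Against the merged Foxp3-negative Cd4 cells, the Foxp3-positive cells were higher (edgeR, log2 fold 0.50, SE 0.10, adjusted p = 0.00511), a call lost without the library term (adjusted p = 0.51). Most UMIs of the merged cells came from Cxcr6-positive cells, where St8sia6 was low (82521251 of 124179460 in control replicate 1). The fold depends on that mix, and no library had Foxp3-positive cells above the Cxcr6-negative cells. CD8 cells had 15.2, 32.1, 22.6, 15.4 and 38.2 CPM, from 25 to 138 UMIs per library. The fitted difference from Foxp3-negative Cd4 cells, which rests on 18, 4, 13, 10 and 17 UMIs in the CD8 cells, did not pass (edgeR, log2 fold -0.86, SE 0.41, adjusted p = 0.399), and on thinned cells it passed (log2 fold -2.75, adjusted p = 0.04).

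St8sia1, the GD3 synthase that adds a further sialic acid to the ganglioside GM3, was likewise highest in Cxcr6-negative Cd4 cells, and it was lowest in Foxp3-positive cells. It stood at 146, 144, 154, 114 and 112 CPM in Cxcr6-negative cells, 84.6, 96.9, 102, 83.4 and 82.9 in Cxcr6-positive cells and 52.5, 63.4, 61.7, 59.2 and 67.6 in Foxp3-positive cells. In each library the order was Cxcr6-negative, Cxcr6-positive, Foxp3-positive, from high to low. The Cxcr6 difference (edgeR, log2 fold -0.62, SE 0.06, adjusted p = 8.01e-05) and the Foxp3 difference (edgeR, log2 fold -0.85, SE 0.07, adjusted p = 2.84e-05) both exceeded the spread between libraries. The second was -1.48 on thinned cells and -1.31 without the 10% of cells with most UMIs in each library. CD8 cells had 60.8, 48.1, 76.7, 51.9 and 98.3 CPM, overlapping the Foxp3-positive cells. Their difference from Foxp3-negative Cd4 cells passed in edgeR (log2 fold -0.90, SE 0.19, adjusted p = 0.00549) but not in DESeq2 (adjusted p = 0.444), nor in edgeR without cells carrying non-T marker UMIs (adjusted p = 0.554) or without the library term (adjusted p = 0.106). With CD8 cells that had neither a Cd4 nor a Foxp3 UMI it was -0.76 (adjusted p = 0.00144). Knockout replicate 3 did not share its direction once cells meeting both gates were left out.

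St8sia4, a polysialyltransferase that builds long sialic acid chains, differed little between the gates. Its level was 234 to 366 CPM in Foxp3-positive, 210.3 to 368 in Cxcr6-positive and 184 to 299.6 in Cxcr6-negative Cd4 cells, and control replicate 1, the deepest library, was the highest in each. Its fitted log2 folds were 0.07 for Foxp3 (SE 0.03), 0.09 for Cxcr6 (SE 0.05) and -0.14 for CD8 (SE 0.07), with edgeR adjusted p-values of 0.171, 0.209 and 0.452. The Foxp3-positive level was 1.03 to 1.13 times the Foxp3-negative one, above it in 5 of 5 libraries, and the CD8 level was 0.862 to 0.975 times it, below in 5 of 5. The Foxp3 difference passed without the cells with most UMIs (log2 fold 0.17, edgeR adjusted p = 0.0255) and the Cxcr6 difference without cells carrying non-T marker UMIs (log2 fold 0.17, edgeR adjusted p = 0.0211).

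Of the enzymes that cap galactose, St3gal6, one of those that make selectin ligands, ran opposite to St8sia6. Cxcr6-positive Cd4 cells had 116, 102, 119, 97.6 and 85.5 CPM and Cxcr6-negative Cd4 cells 53.8, 61.7, 62.3, 51.3 and 59.6, the first 1.44 to 2.16 times as high as the second in each library (edgeR, log2 fold 0.81, SE 0.07, adjusted p = 7.97e-05). Foxp3-positive cells had 43.6, 55.5, 53.4, 61.4 and 49.9, which overlaps the Cxcr6-negative cells and lies below the Cxcr6-positive cells in every library (against all Foxp3-negative Cd4 cells, edgeR log2 fold -0.84, SE 0.09, adjusted p = 0.000131). That fold was -1.42 on thinned cells, -1.89 without cells carrying non-T marker UMIs and -1.48 without the cells with most UMIs. CD8 cells reached 142, 141, 143, 109.9 and 83.3 CPM. Their difference from Foxp3-negative Cd4 cells was at the edge of the threshold (edgeR, log2 fold 0.36, SE 0.10, adjusted p = 0.0398). The adjusted p was 0.0815 in DESeq2 and 0.199, 0.126, 0.0866 and 0.0734 in edgeR without control replicates 1 and 2 and knockout replicates 1 and 2 in turn. It was 0.66 on thinned cells, 0.932 without cells carrying non-T marker UMIs and 0.00354 with CD8 cells that had neither a Cd4 nor a Foxp3 UMI. Dcbld2, the gene on the opposite strand at this locus, stood at no more than 9.87 CPM in any gate.

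St3gal4, which likewise works on selectin ligands, varied little, with 101 to 120.1 CPM in Cxcr6-positive and 77.3 to 103 in Cxcr6-negative Cd4 cells. The small excess was seen in 5 of 5 libraries (edgeR, log2 fold 0.17, SE 0.04, adjusted p = 0.00764). It was lost when each cell was thinned to 2000 UMIs (adjusted p = 0.41) or when cells with UMIs of non-T markers were removed (adjusted p = 0.084). St3gal1, which caps the core of O-glycans on proteins such as CD43, was lower in Cxcr6-positive cells in 5 of 5 libraries, at 0.82 to 0.983 of the Cxcr6-negative level (edgeR, log2 fold -0.21, SE 0.04, adjusted p = 0.00369). This call was lost without the library term (adjusted p = 0.166). Neither passed between Foxp3-positive and Foxp3-negative Cd4 cells (edgeR adjusted p = 0.118 and 0.251). Both passed in some alternative, with smallest adjusted p-values over the edgeR and DESeq2 alternatives of 0.00478 (St3gal4) and 0.0197 (St3gal1).

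St6gal1, which makes the sialylated N-glycan ligand of CD22, had the same order of gates in all 5 libraries. From high to low, it stood at 348, 268, 311, 213 and 232 CPM in Cxcr6-negative Cd4 cells and 240.2, 227, 207, 177 and 219 in Foxp3-positive cells. It was then 212, 176, 158, 141 and 151 in Cxcr6-positive Cd4 cells and 191, 159, 146, 102 and 127 in CD8 cells. The Cxcr6 difference (edgeR, log2 fold -0.75, SE 0.06, adjusted p = 4.63e-05) and the CD8 difference (edgeR, log2 fold -0.66, SE 0.11, adjusted p = 0.00126) exceeded the spread between libraries. The second did not pass without cells carrying non-T marker UMIs (adjusted p = 0.666), where 8 to 41 CD8 cells per library remained. Foxp3-positive cells did not differ detectably from the merged Foxp3-negative Cd4 cells (edgeR, log2 fold 0.04, SE 0.05, adjusted p = 0.642). The smallest adjusted p over the edgeR and DESeq2 alternatives was 0.0263, and the log2 folds there ran from -0.01 to 0.25. B cells, known for high St6gal1, reached 363 to 718 CPM in the few that were in these libraries (6 to 35 per library).

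St6galnac3, which adds sialic acid to N-acetylgalactosamine in already sialylated chains of glycoproteins and gangliosides, was higher in Cxcr6-positive than in Cxcr6-negative Cd4 cells in 5 of 5 libraries. The levels were 324, 408, 811, 750.3 and 469 CPM in the first and 200.1, 245, 469.7, 695 and 349 CPM (edgeR, log2 fold 0.50, SE 0.08, adjusted p = 0.00153). The gates overlap across libraries with the knockout libraries the higher ones in both. Without a term for the library, the adjusted p was 0.39. Foxp3-positive cells, at 392, 322, 582, 693 and 501, did not differ detectably from Foxp3-negative Cd4 cells (edgeR, log2 fold -0.01, SE 0.09, adjusted p = 0.971). CD8 cells were lower in 4 of 5 libraries, knockout replicate 3 being the exception (edgeR, log2 fold -0.51, SE 0.10, adjusted p = 0.00311). This call was lost without cells carrying non-T marker UMIs (adjusted p = 0.379) and without the library term (adjusted p = 0.622). St6galnac6, which works on similar gangliosides, was close to the limit of detection at 4.44 to 12.3 CPM over the 4 gates. Its excess in Cxcr6-positive cells (edgeR, log2 fold 0.37, SE 0.11, adjusted p = 0.0228) did not pass in DESeq2 (adjusted p = 0.0908) or in edgeR without knockout replicate 1, 2 or 3 (adjusted p = 0.0679, 0.0603 and 0.0506).

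In all, 8 of 9 members passed between Cxcr6-positive and Cxcr6-negative Cd4 cells (4 higher, 4 lower, median log2 fold 0.09 against 0.01 over all genes), where 43.1% of 12587 genes tested passed (23.1% higher and 20% lower). These 8 had 1 direction in all 5 libraries, as 46.8% of all genes did. The 2 gates differed in depth. Median UMI counts were 16696, 5951, 9181, 5440 and 5866 in Cxcr6-positive cells against 11645, 3743.5, 6463, 3961.5 and 3813 in Cxcr6-negative cells. The part of this gap was not tested beyond the alternatives given. For Foxp3-positive against Foxp3-negative Cd4 cells, 3 of 9 passed (1 higher, 2 lower) beside 21.4% of 12994 genes (11.9% higher and 9.53% lower). For CD8 against Foxp3-negative Cd4 cells it was 4 of 9 (1 higher, 3 lower) beside 3.92% of 12051 (1.97% higher and 1.95% lower), a background of 472 genes that was 226 without control replicate 1. All 9 members passed the filter on low counts in these 3 comparisons. In the Foxp3 comparison, most UMIs on the Foxp3-negative side came from Cxcr6-positive cells, so its folds depend on that mix. Macrophage markers were close between the Cd4 gates in control replicate 1 (summed level 168 and 178 CPM). Over the controls they ranged over 168 to 611 in Cxcr6-positive and 178 to 599 in Cxcr6-negative cells. In the knockout libraries the ranges were 439 to 751 and 233 to 552 CPM, higher at both ends with Cxcr6. The part of macrophage RNA in the results was tested only by removing cells with non-T marker UMIs, a rule that also uses other lists. This removal left the direction of the 8 called Cxcr6 differences as it was.

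**Figure D2:**
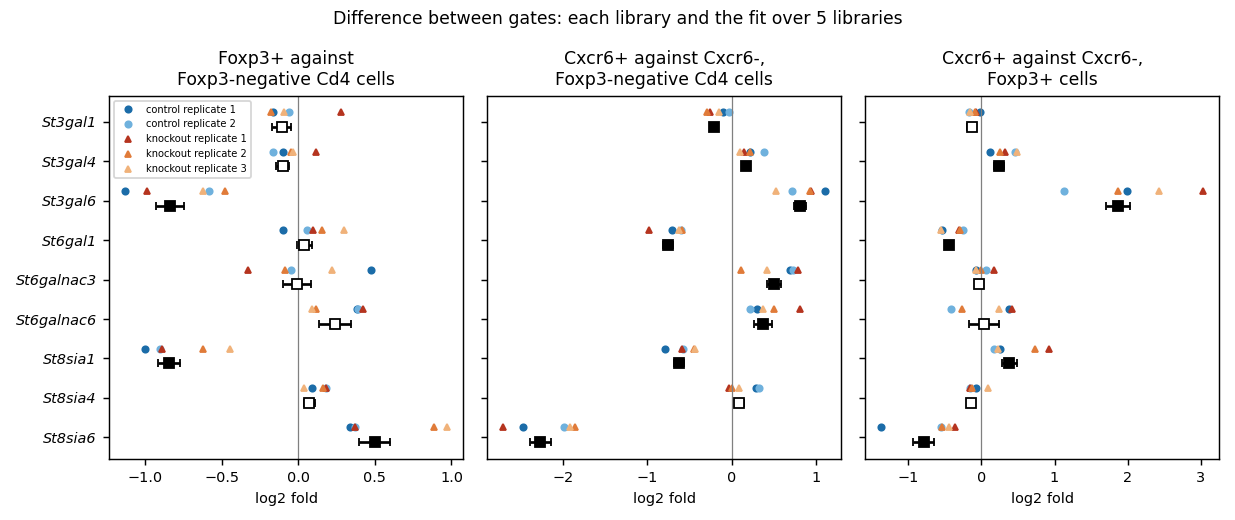
Difference between gates as a log2 fold (horizontal axes) for each of the 9 members, with 1 coloured mark per library and a square for the edgeR fit over 5 libraries (bar, SE; filled where the adjusted p is under 0.05). St8sia6 lies far to the left for Cxcr6 among Foxp3-negative cells, and St3gal6 far to the right among Foxp3-positive cells.

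Shares of cells with a UMI, compared after each cell was thinned to 2000 UMIs, gave the orders that follow (cells with fewer UMIs were left out: 204 of 2995 Foxp3-positive, 256 of 15163 Cxcr6-positive and 1253 of 11815 Cxcr6-negative cells). For St3gal6 the share was 15.6 to 20.2% of Cxcr6-positive, 9.01 to 10.2% of Cxcr6-negative and 4.64 to 8.26% of Foxp3-positive cells (36.7 to 66.7%, 15.7 to 31.0% and 16.1 to 30.8% before thinning). The Foxp3-positive shares thus lay below the Cxcr6-negative ones, while the CPM of the same gates overlapped, so no order of these 2 gates is read from the shares. St8sia6 was seen in 5.14 to 11.5% of Cxcr6-negative and 0.804 to 2.41% of Cxcr6-positive cells (7.01 to 26.7% and 3.29 to 8.13% before thinning). For comparison, macrophages (UMIs of C1qa and C1qb, none of Cd3e, 50 to 165 cells per library, median 3771 to 4839 UMIs) had St8sia6 in at most 7.94% of thinned cells. The Cxcr6-positive share is not above that value, and the range of the Cxcr6-negative share includes it. In the same macrophages, St3gal6 was seen in 7.94 to 21.8% of cells and St8sia1 in 7.27 to 17.5% of cells. The St3gal6 shares of all 3 gates and the St8sia1 shares of Foxp3-positive and Cxcr6-positive cells are not above the highest of these. Mean St3gal6 was 185 CPM in control macrophages against 86.1 in all retained control cells, and 96.1 against 85.3 in the knockouts. Whether the macrophages make these transcripts themselves was not tested, so their shares set no background for the T cells. St8sia1 was found in 18.3 to 23.8% of Cxcr6-negative, 12.9 to 16.4% of Cxcr6-positive and 8.24 to 10.1% of Foxp3-positive cells.

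**Figure D3:**
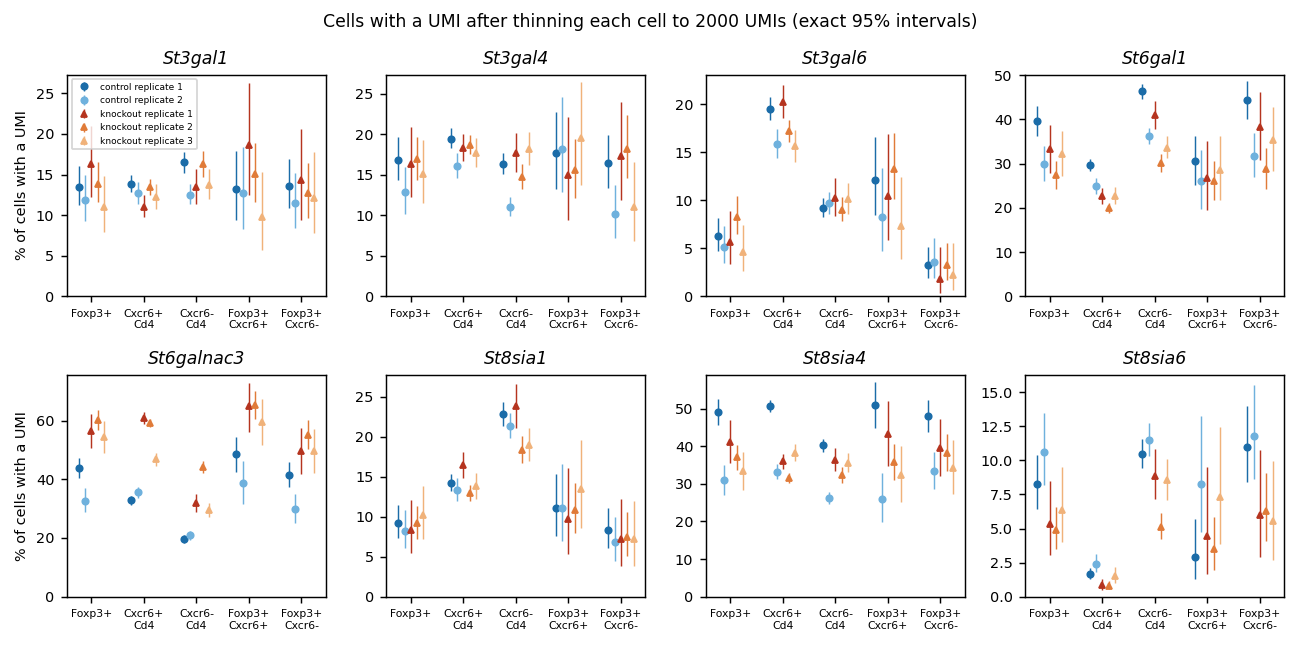
Percent of cells with at least 1 UMI of each member (St6galnac6, seen in few cells, is left out) after each cell was thinned to 2000 UMIs, by gate (horizontal axes) and library (circles, controls; triangles, knockouts; bars, exact 95% binomial intervals for counting error). St3gal6 is more frequent in Cxcr6-positive cells both with and without Foxp3, and St8sia6 is rarest in Cxcr6-positive Cd4 cells.

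Within the Foxp3-positive cells, a split by Cxcr6 gave 5 of 9 members past the threshold (3 higher, 2 lower) beside 15.2% of 10225 genes (7.37% higher and 7.87% lower). St3gal6 stood at 69.8, 76.0, 72.8, 78.1 and 67.5 CPM with a Cxcr6 UMI and 17.5, 34.6, 8.88, 21.4 and 12.5 without, 2.20 to 8.20 times as high in the 5 libraries (edgeR, log2 fold 1.87, SE 0.17, adjusted p = 7.41e-05). The low side rests on 14 to 159 UMIs. St8sia6 fell from 61.7, 76.6, 38.1, 34.0 and 55.4 without Cxcr6 to 23.9, 52.0, 29.8, 23.4 and 40.9 with it (edgeR, log2 fold -0.79, SE 0.14, adjusted p = 0.00444). St6gal1 fell from 284, 248, 239, 204 and 279.7 to 196, 207, 193, 166 and 191 (edgeR, log2 fold -0.44, SE 0.06, adjusted p = 0.000707). St8sia1 (log2 fold 0.38, SE 0.11, adjusted p = 0.0335 in edgeR) and St3gal4 (log2 fold 0.25, SE 0.07, adjusted p = 0.0333) were higher in 5 of 5 libraries, but neither passed in DESeq2 (adjusted p = 0.109 and 0.183). The sign turned for St8sia1 without cells carrying non-T marker UMIs (log2 fold -0.11, edgeR adjusted p = 0.843) and for St3gal4 on thinned cells (log2 fold -0.39, edgeR adjusted p = 0.651). Both alternatives rest on few cells. Of 272, 183, 134, 401 and 166 Foxp3-positive cells with a Cxcr6 UMI, 43, 55, 9, 77 and 37 carried no non-T marker UMIs by this rule. Thinning left 43, 41, 15, 77 and 23. The loss of cells and the removal of non-T UMIs cannot be told apart here. In edgeR, St8sia1 no longer passed without knockout replicate 1, 2 or 3 (adjusted p = 0.0817, 0.123 and 0.0593), and St3gal4 no longer without control replicate 2 or knockout replicate 1, 2 or 3 (adjusted p = 0.109, 0.0765, 0.0754 and 0.106). The background of 1559 called genes was 945 and 933 without knockout replicates 2 and 3.

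Foxp3-positive cells with a Cxcr6 UMI had higher UMI counts and lower levels of Treg markers. Their median UMI count was 27601, 9768, 23036, 12435 and 12396 in the 5 libraries against 13027, 4174, 6804, 4519.5 and 3871 without Cxcr6. Their summed Treg markers were at 1468 to 2183 against 2939 to 4265 CPM, and their summed macrophage markers 167 to 1242 against 153 to 623. Doublets were not called, and the part of droplets with a pair of cells was not tested otherwise. With the 10% of cells with most UMIs left out of each library, St3gal6 still differed (edgeR log2 fold 2.33, adjusted p = 1.07e-06), as did St8sia6 (-1.61, adjusted p = 3.6e-05) and St6gal1 (-0.68, adjusted p = 0.000119). After thinning each cell to 2000 UMIs before the gates were drawn, St3gal6 was too low in this split to pass the filter on low counts.

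The Cxcr6-linked difference itself differed between Foxp3-positive and Foxp3-negative cells for 4 of 9 members (3 positive, 1 negative), beside 7.79% of 12264 genes (3.57% positive and 4.22% negative). These were 955 genes, and 576, 402 and 374 without control replicates 1 and 2 and knockout replicate 1. The St8sia6 deficit of Cxcr6-positive cells was smaller among Foxp3-positive cells (interaction log2 1.495, SE 0.23, edgeR adjusted p = 0.001). For St8sia1 the sign turned, from lower with Cxcr6 in Foxp3-negative to higher in Foxp3-positive cells (interaction log2 1.01, SE 0.14, edgeR adjusted p = 0.000537). Without cells carrying non-T marker UMIs the sign did not turn (log2 fold -0.11 among Foxp3-positive cells) and the St8sia1 interaction did not pass (0.66, edgeR adjusted p = 0.293), nor did that of St3gal6 (0.84, adjusted p = 0.165). That alternative kept 9 to 77 Foxp3-positive cells with a Cxcr6 UMI per library. The St3gal6 excess was larger among Foxp3-positive cells (interaction log2 1.04, SE 0.21, edgeR adjusted p = 0.00606). St6galnac3, higher with Cxcr6 among Foxp3-negative cells, had an interaction of -0.55 (SE 0.16, edgeR adjusted p = 0.0466). It did not pass without control replicate 1 or 2 or knockout replicate 1 or 3 (adjusted p = 0.0589, 0.168, 0.121 and 0.111). On cells thinned to 2000 UMIs before gating, the interactions of the 4 kept their direction (1.66, 1.19, 1.36 and -0.69) and none passed (adjusted p = 0.442, 0.348, 0.14 and 0.0546).

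No member passed between knockout and control libraries in any gate in edgeR, nor did any other gene. Of the tested genes, 0 of 11519, 13400, 12430 and 9024 passed in Foxp3-positive, Cxcr6-positive, Cxcr6-negative and CD8 cells (0% each). An unadjusted p under 0.05 was found for 6.53%, 3.76%, 4.75% and 3.66% (752, 504, 591 and 330 genes). DESeq2 called 48, 40, 43 and 2 genes. Without control replicate 2, edgeR called 33, 0, 1 and 77 genes, and it called 1, 0, 0 and 7 without control replicate 1 and 8, 0, 3 and 1 without knockout replicate 1. St6galnac6 was too low to be tested in CD8 cells, and the other members were tested in all 4 gates.

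St6galnac3 was higher in all 3 knockout libraries than in both controls in each gate. In Foxp3-positive cells, the cells in which Cre is made, the level was 392 and 322 CPM (controls) and 582, 693 and 501 CPM (knockouts), with an edgeR log2 fold 0.69, SE 0.16, adjusted p = 0.439. It was 324 and 408 CPM (controls) and 811, 750.3 and 469 CPM (knockouts) in Cxcr6-positive Cd4 cells, with an edgeR log2 fold 0.86, SE 0.25, adjusted p = 1.00. In Cxcr6-negative Cd4 cells it was 200.1 and 245 CPM (controls) and 469.7, 695 and 349 CPM (knockouts), with an edgeR log2 fold 1.14, SE 0.28, adjusted p = 0.875. CD8 cells had 205 and 238 CPM (controls) and 623, 532 and 363 CPM (knockouts), with an edgeR log2 fold 1.19, SE 0.21, adjusted p = 0.182. The groups did not overlap in any of the 4 gates, and none of the differences passed the threshold. Genotype groups fully separated upward for 14.9%, 10.3%, 11.9% and 9.43% of the genes tested in the same gates. DESeq2 gave adjusted p-values of 0.00957, 0.094, 0.0133 and 0.00025. In CD8 cells edgeR called it without control replicate 2 (log2 fold 1.28, adjusted p = 0.00537).

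The difference was also seen outside Foxp3-positive cells. The interaction of genotype with Foxp3 was -0.29 on the log2 scale (SE 0.17, edgeR adjusted p = 0.855) and that with Cxcr6 -0.26 (SE 0.16, adjusted p = 0.77). The macrophages, drawn by C1qa and C1qb UMIs and no Cd3e UMI, showed the same separation by library. They had 161 and 220.4 CPM (controls) and 470.2, 543 and 398 CPM (knockouts), from 67, 169, 130, 181 and 183 UMIs. They were not free of T-cell RNA. Their summed T-cell markers were 317 to 1734 CPM (controls) and 944 to 1597 CPM (knockouts). Summed markers of Th1 or tissue T cells were 180 to 655 CPM (controls) and 961 to 1113 CPM (knockouts). The part of T-cell RNA in their St6galnac3 level was not tested. B cells did not separate clearly, at means of 313 CPM (SD 204, controls) and 417 CPM (SD 178, knockouts). These means rest on 272 UMIs in 6 to 35 cells per library. Tubule cells (UMIs of Lrp2 and Slc34a1, none of Cd3e) had means of 57.9 (controls) and 1.28 CPM (knockouts). Their 23 UMIs are too few to read. After thinning, the share of macrophages with a St6galnac3 UMI was 14.5 and 15.1% (controls) and 40.0, 41.3 and 41.9% (knockouts). The share of Foxp3-positive cells was 43.9 and 32.8% (controls) and 56.5, 60.3 and 54.5% (knockouts). The summed level of macrophage markers in Foxp3-positive cells was 160.0 and 649.7 CPM (controls) and 557, 805 and 1031 CPM (knockouts), so control replicate 2 lay within the knockout range. Without cells carrying UMIs of non-T markers, the log2 folds of St6galnac3 in the 4 gates were 0.64, 0.84, 1.04 and 1.11. The share of free RNA in the libraries was not tested. St6galnac3 spans 527 kb (chr3:153198266-153725174, mm10, minus strand), and over genes of at least 200 kb the median log2 fold between the genotypes was 0.06 in Foxp3-positive cells. No other gene of the deposited tables overlaps it in GENCODE M21. Genes outside those tables do, among them 1700012D16Rik, A530083M17Rik, 1700015C17Rik and 4930597L12Rik on the same strand. Whether their reads were counted as St6galnac3 was not tested.

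**Figure D4:**
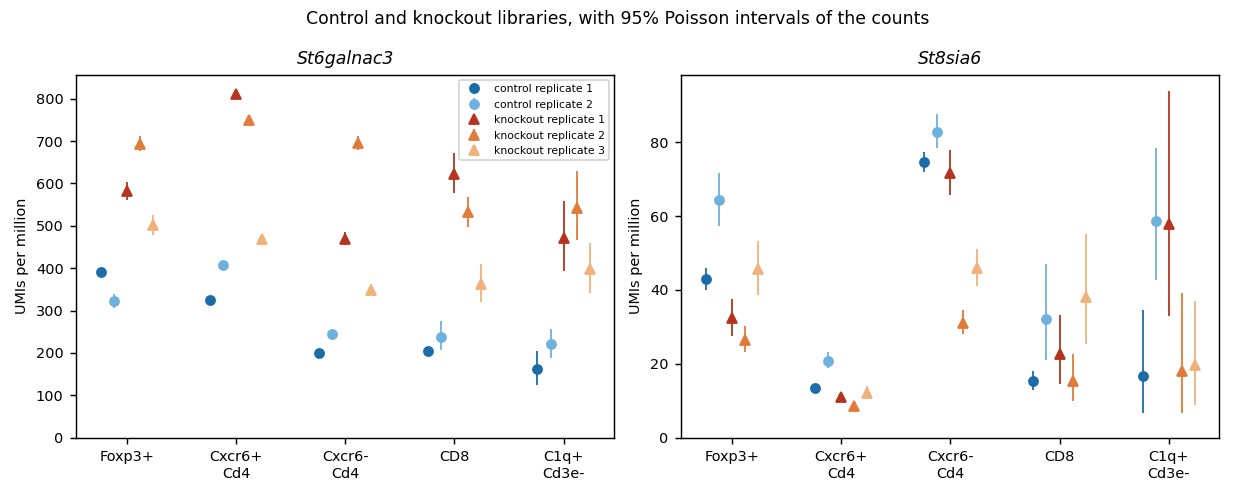
St6galnac3 (left) and St8sia6 (right) in CPM (vertical axes from 0) by cell set and library, with exact 95% Poisson intervals that cover counting error only. The 3 knockout libraries (triangles) lie above both controls (circles) for St6galnac3 in every set including macrophages (C1q+ Cd3e-), and for St8sia6 the Cxcr6-negative Cd4 cells hold the highest points.

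St8sia6 had the opposite sign in the 3 Cd4-lineage gates. It was 74.7 and 82.9 CPM (controls) and 71.6, 31.1 and 45.9 CPM (knockouts) in Cxcr6-negative Cd4 cells, with an edgeR log2 fold -0.72, SE 0.30, adjusted p = 0.999. In Cxcr6-positive Cd4 cells it was 13.5 and 20.9 CPM (controls) and 10.98, 8.59 and 12.1 CPM (knockouts), with an edgeR log2 fold -0.72, SE 0.23, adjusted p = 1.00. Foxp3-positive cells had 42.9 and 64.3 CPM (controls) and 32.3, 26.5 and 45.6 CPM (knockouts), with an edgeR log2 fold -0.67, SE 0.24, adjusted p = 0.682. The groups did not overlap in the 2 Foxp3-negative gates, where 5.72% (Cxcr6-positive) and 6.78% (Cxcr6-negative) of genes separated downward, and they overlapped in Foxp3-positive cells. Without the filter on low counts, edgeR called St8sia6 in Foxp3-positive and Cxcr6-negative cells (adjusted p = 0.000295 and 0.000126) and not in Cxcr6-positive cells (adjusted p = 0.0597). The DESeq2 adjusted p-values were 0.543, 0.881 and 0.606 in the same order. Naive-cell markers moved with it in Cxcr6-negative cells: their summed level was 1743 and 2074 CPM (controls) and 1662, 1074 and 1288 CPM (knockouts). The part of the naive-cell share in the difference was not tested.

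St6gal1 had a negative log2 fold in all 4 gates, -0.26 (SE 0.11), -0.40 (SE 0.11), -0.33 (SE 0.20) and -0.54 (SE 0.17), with edgeR adjusted p-values of 0.765, 1.00, 0.999 and 0.944. The groups did not overlap in Foxp3-positive, Cxcr6-positive and CD8 cells, where 7.27%, 5.72% and 6.13% of genes separated downward. St8sia4 was 321 and 225 CPM (controls) and 235, 191 and 228 CPM (knockouts) in CD8 cells (log2 fold -0.38, SE 0.17, adjusted p = 1.00, edgeR), and its log2 fold was -0.07 without control replicate 1. For St3gal1, St3gal4, St3gal6 and St8sia1 the log2 folds lay between -0.34 and 0.35 over the 4 gates, with SEs of 0.10 to 0.24, so changes of that size were not detectable with these libraries. No member passed in the interaction of genotype with Foxp3 (beside 0.0502% of 13949 genes) or with Cxcr6 (beside 0.0225% of 13358) in edgeR. Without the filter on low counts, edgeR called St6galnac3 in the first (log2 -0.28, adjusted p = 0.0245). At an unadjusted p under 0.05, 3 members were counted in the first and 2 in the second, beside 6.59% and 7.86% of genes, and DESeq2 called 29 and 22 genes in all. The 7 and 3 genes called by edgeR became 7 and 0 without control replicate 1, 39 and 3 without control replicate 2, and 32 and 228, 2 and 2, and 2 and 17 without knockout replicates 1, 2 and 3.

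The genes around the 9 enzymes were described from 6 lists. Their median log2 folds between Cxcr6-positive and Cxcr6-negative Cd4 cells were 0.02 for sialic acid supply, 0.11 for acceptor glycans and 0.31 for other sialyltransferases. They were 0.02 for sialidases and turnover, 0.06 for carriers and 0.06 for Siglec receptors, against 0.01 over all genes. Of 6 genes of sialic acid supply, 5 could be tested between Cxcr6-positive and Cxcr6-negative Cd4 cells, and 2 were higher and 2 lower in edgeR, beside 43.1% of all genes. Cmah, which turns the common sialic acid into its glycolyl form, was lower with Cxcr6, from 274, 237, 238, 167 and 197 to 89.9, 100.1, 83.1, 79.3 and 74.8 CPM (log2 fold -1.42, SE 0.07, edgeR adjusted p = 7.83e-06), lower in 5 of 5 libraries. Nans, the sialic acid synthase (log2 fold 0.48, adjusted p = 0.000115), and Slc35a1, the Golgi carrier of CMP-sialic acid (log2 fold 0.26, adjusted p = 0.03), were higher. Cmas, which activates sialic acid, was lower (log2 fold -0.19, adjusted p = 0.00565), all by edgeR. Among Foxp3-positive cells split by Cxcr6, Cmah (log2 fold -0.51, adjusted p = 0.00466), Nans (log2 fold 0.35, adjusted p = 0.0115) and Cmas (log2 fold -0.24, adjusted p = 0.0331) moved in the same directions in edgeR. The Cmah deficit was smaller there (interaction log2 0.90, SE 0.13, edgeR adjusted p = 0.000656).

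Among the 16 enzymes that build the glycans the sialyltransferases act on, 5 were higher and 3 lower in Cxcr6-positive Cd4 cells by edgeR, beside 43.1% of all genes (23.1% higher and 20% lower). Ugcg, which makes the glucosylceramide core of gangliosides, was lower (log2 fold -0.73, adjusted p = 0.000132), as was Mgat5, which branches N-glycans (log2 fold -0.30, adjusted p = 0.000656). Galnt3, which starts O-glycans (log2 fold 0.87, adjusted p = 0.000338), and Mgat2 (log2 fold 0.42, adjusted p = 0.000583) were higher. In Foxp3-positive against Foxp3-negative Cd4 cells, 3 of the 16 were higher and 3 lower by edgeR, beside 21.4% of all genes (11.9% higher and 9.53% lower). B4galnt1, the GM2 and GD2 synthase, was lower (log2 fold -0.46, adjusted p = 2.13e-05), as St8sia1 was. Mgat5 (log2 fold 0.43, adjusted p = 3.58e-05) and Fut7, which adds the fucose of selectin ligands (log2 fold 0.98, adjusted p = 0.00248, at 4.09 to 8.45 against 1.98 to 3.76 CPM in Cxcr6-positive Cd4 cells), were higher. Ugcg was lower too (log2 fold -0.21, adjusted p = 0.00499). In CD8 cells, Ugcg (log2 fold 0.66, adjusted p = 0.00462) and B4galt5 (log2 fold 0.53, adjusted p = 0.0183) passed, both higher, beside 1.97% of all genes.

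Of the 11 other sialyltransferases, 7 could be tested between the Cd4 gates and 4 passed, beside 43.1% of all genes. In Cxcr6-positive cells, St3gal5, the GM3 synthase (log2 fold 0.45, adjusted p = 0.00967), and St6galnac4 (log2 fold 0.31, adjusted p = 0.0149) were higher and St6galnac5 lower (log2 fold -0.59, adjusted p = 0.0426). St6galnac2 also passed upward (log2 fold 0.80, adjusted p = 0.0333), but its symbol stands in more than 1 row of the tables and the value is of 1 of them. St8sia2 had 0 UMIs and St8sia3, St8sia5 and St6gal2 at most 7 in the sums of both gates. St3gal2 was the one that passed for Foxp3, upward (log2 fold 0.30, adjusted p = 0.00631). In the list of sialidases and turnover, Ctsa (log2 fold 0.24, adjusted p = 0.0135) was higher and Neu1 (log2 fold -0.25, adjusted p = 0.0144) and Casd1 (log2 fold -0.14, adjusted p = 0.0174) lower with Cxcr6. The sialidase Neu3 was higher in Foxp3-positive cells (log2 fold 0.89, adjusted p = 0.00486). Of the carriers, Cd44, whose hyaluronan binding depends on its sialic acids, was higher with Cxcr6 (log2 fold 0.30, adjusted p = 0.00302), lower in Foxp3-positive cells (log2 fold -0.23, adjusted p = 0.00123) and lower in CD8 cells (log2 fold -0.35, adjusted p = 0.011). In the last, Selplg, the P-selectin ligand, was higher (log2 fold 0.33, adjusted p = 0.0117). The Siglec genes Cd22 (log2 fold -0.57, adjusted p = 0.00122) and Siglech (log2 fold -2.13, adjusted p = 0.0153), markers of B cells and plasmacytoid dendritic cells, were lower in Cxcr6-positive cells. They stood there at 5.01 to 10.7 and 0.132 to 2.12 CPM. All p-values here are from edgeR. No gene of these 6 lists passed between knockout and control in any gate in edgeR (0 of all genes did).

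**Figure D5:**
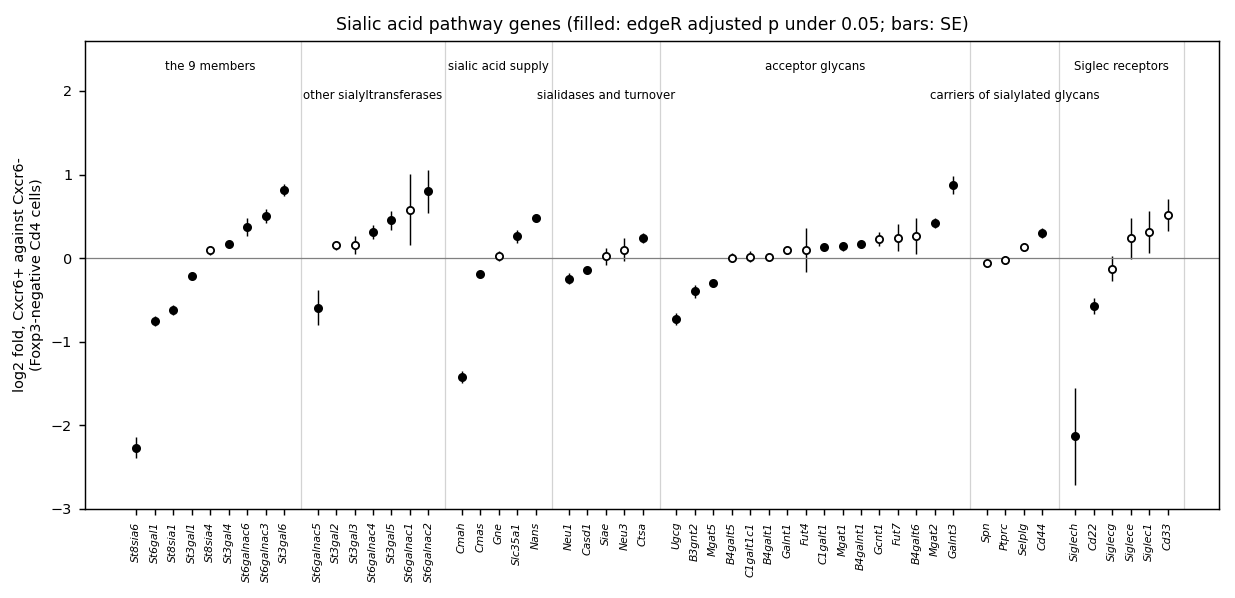
Log2 fold between Cxcr6-positive and Cxcr6-negative Foxp3-negative Cd4 cells (vertical axis) for the 9 members and 6 lists of sialic acid pathway genes that could be tested (points, edgeR fit over 5 libraries; bars, SE; filled, adjusted p under 0.05). St8sia6 and Cmah are far below 0 with short bars, and the low point of Siglech has a long one.

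Across the 4 gates in 5 libraries (20 points, log2 levels with each library's mean removed), the genes with the most similar pattern among 8520 are given as a description, for the points share libraries and the CD8 gate shares cells with the others. For St8sia6 they were Akap13, Adk and Nedd4l (Pearson r up to 0.982), for St3gal6 Sp110, Thy1 and Gdf11 (up to 0.969), for St6gal1 Bcl9, Abcc4 and Ets1 (up to 0.951) and for St8sia1 Gm12840, Pip4k2a and Asap1 (up to 0.929). Lower values were reached for St6galnac3 with Gna15, Olfr60 and Slamf1 (up to 0.898), St8sia4 with Smad3, Tmem173 and Cd200r1 (up to 0.882), St3gal4 with Oxsr1, Nup88 and Gnptg (up to 0.924) and St3gal1 with Rnf2, Gatb and Brms1l (up to 0.869). Among the members themselves, St8sia6 and St6gal1 varied together (r = 0.76), as did St3gal4 and St3gal6 (r = 0.76), and St3gal6 ran against both St8sia6 (r = -0.79) and St6gal1 (r = -0.80). St6galnac6 was under 10 CPM on average and was left out.

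By position (mm10, GENCODE M21), St6gal1 (chr16:23224740-23360350, plus strand) and St3gal6 (chr16:58468125-58524243, minus strand) lie on 1 chromosome, as do St8sia6 (chr2:13651021-13794064, minus) and St6galnac6 (chr2:32599709-32620806, plus). St8sia1 is at chr6:142821545-142964452, St8sia4 at chr1:95587682-95667571, St3gal1 at chr15:67102875-67176830 and St3gal4 at chr9:35046576-35119268, all on the minus strand. The antisense gene Gm37126 at the St8sia6 locus had at most 0.205 CPM in any gate. Genes of at least 200 kb had a median log2 fold of -0.20 between Cxcr6-positive and Cxcr6-negative Cd4 cells, against 0.01 over all genes, and St6galnac3, the 1 member of that length, lay above both.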

How the data were processed

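Sorted CD4 T cells were read as 5 single-cell libraries of 3′ ends. The deposited values are raw UMI counts of 31053 genes in each barcode. Per the file headers they come from Cell Ranger 8.0.0, run by the authors. The submitters' processing notes name Cell Ranger 8.0, Seurat 5.1.0 and mm10. Whether intronic reads were counted is not given in the sources used here.

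Cells with under 500 genes (1906) or at least 10% mitochondrial UMIs (1133) were removed. Counts were summed per gate and library, and levels are CPM, the UMIs of a gene scaled to a sum of 1000000 per gate and library. All genes past filterByExpr entered edgeR 4.0.16 (R 4.3.3, TMM factors, quasi-likelihood test), and Benjamini-Hochberg adjusted p-values under 0.05 were called. Comparisons between gates had the library as a term. SE is the log2 fold divided by the root of F. The edgeR tests were also run on counts simulated from edgeR's own fitted means and dispersions. Such counts follow the model by construction, so this cannot show how the tests fare where the data depart from it. The members and gene lists were chosen with earlier results of these data known, so no list or p-value is independent support. Named genes were all members and, per list and comparison, the 4 called genes lowest in p at most. The alternatives were DESeq2 1.42.0, RLE factors, no filter on low counts, a strict cell filter (1000 genes, 5%), thinning to 2000 UMIs, removal of cells with 2 or more UMIs of non-T markers, a Cd3e requirement, a replicate block or no library term, and leaving out each library. Leaving out the 10% of cells with most UMIs was added after seeing the data. An item withheld from this text is not reported here. Exact intervals are 95% and cover counting error only, since cells are not replicates. Sequences are from RefSeq, positions from GENCODE M21, and the software was matplotlib 3.10.9, pandas 2.3.3, scipy 1.17.1 and numpy 2.4.6 under Python 3.11.15.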

Additional observations from a re-analysis of the deposited data

Results flagged for a closer look

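For 4 members the difference between Cxcr6-positive and Cxcr6-negative cells was not the same in Foxp3-positive as in Foxp3-negative cells, by the interaction term of edgeR with Benjamini-Hochberg adjustment over 12264 genes. The interaction (Foxp3-positive minus Foxp3-negative, log2) was 1.495 for St8sia6, 1.01 for St8sia1, 1.04 for St3gal6 and -0.55 for St6galnac3. Foxp3-positive cells with a Cxcr6 UMI had median UMI counts of 9768 to 27601 per library against 3871 to 13027 without one, and the part of this depth gap was not tested beyond the alternatives given here. In the alternative without the cells with most UMIs, the interactions were 1.70, 1.08, 1.45 and -0.54 in the same order, with edgeR adjusted p-values of 0.00812, 0.0027, 0.000377 and 0.124. After removal of cells with non-T marker UMIs they were 1.58, 0.66, 0.84 and -0.67 (adjusted p = 0.0266, 0.293, 0.165 and 0.0327, edgeR). This removal left 9 to 77 Foxp3-positive cells with a Cxcr6 UMI per library.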

How the results depend on the processing

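Counts of genes called between knockout and control (0 in each gate) depended on the tool and on single libraries. In Foxp3-positive, Cxcr6-positive, Cxcr6-negative and CD8 cells they were 48, 40, 43 and 2 in DESeq2, 452, 199, 378 and 120 without the filter on low counts, 2, 0, 0 and 1 with thinned cells, 0, 0, 0 and 22 without non-T marker cells, 0, 0, 0 and 2 without the cells with most UMIs, 0, 1, 0 and 0 with the replicate number as a block, and 0 to 33, 0 to 0, 0 to 3 and 0 to 77 when each library was left out. The labels do not pair the numbers, so the numbers were not taken to pair the libraries. Deviations of same-numbered libraries from their group mean correlated at -0.11 to 0.25. The deviations of the 2 controls mirror each other, so these values cannot exclude a pairing. For the Foxp3, Cxcr6 and CD8 comparisons (2787, 5420 and 472 genes), thinning left 1301, 2744 and 204, no library term 846, 1860 and 165, and removal of non-T marker cells 1609 for Foxp3 and 206 for CD8. Left-out libraries gave 1936 to 2775, 4001 to 5322 and 226 to 474. For Cxcr6 among Foxp3-positive cells (1559) the counts were 825 in DESeq2, 79 thinned, 317 without non-T marker cells, 678 without the cells with most UMIs, 441 with no library term and 933 to 1348 over left-out libraries. The interaction of Foxp3 with Cxcr6 (955) gave 13, 151 and 310 under thinning, removal of non-T marker cells and of the cells with most UMIs, and 374 to 665 over left-out libraries. The interactions of genotype with Foxp3 and with Cxcr6 (7 and 3) gave 29 and 22 in DESeq2, 297 and 528 without the filter, 16 and 14 thinned, 0 and 1 without non-T marker cells, 13 and 11 without the cells with most UMIs, 10 and 0 with a Cd3e UMI required, and 2 to 39 and 0 to 228 over left-out libraries. The causes were not tested.

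Of 639 alternative values for members with an unadjusted p under 0.05, 558 kept direction and side of the threshold, 56 no longer passed, 17 newly passed and 8 turned sign. These were St8sia4 for genotype in CD8 cells without non-T marker cells (0.064), St6galnac6 for Foxp3 when thinned (-0.0275), St8sia6 in CD8 cells without control replicate 1 (0.000229, left-out range from -1.40), St3gal4 for Cxcr6 among Foxp3-positive cells when thinned (-0.39), St8sia1 without non-T marker cells in the same comparison (-0.11) and in the interaction of genotype with Foxp3 (-0.12), and St6gal1 in the interaction of Foxp3 with Cxcr6 when thinned (-0.26) and without non-T marker cells (-0.12). Without the filter, edgeR also called St6galnac3 for genotype in all 4 gates (adjusted p = 4.33e-05, 0.00272, 6.02e-09 and 2.49e-09) and in the interaction of genotype with Foxp3 (0.0245), and St8sia6 for genotype in Foxp3-positive and Cxcr6-negative cells (0.000295 and 0.000126). Depth limits St6galnac6 in every gate and all members in CD8 cells (63 to 329 cells per library).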

Other observations

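A split of Foxp3-positive cells by an Il1rl1 UMI (83 to 250 cells with one per library) is given with no test. In no member did all 5 libraries lie on 1 side of equality. The ratio of cells with to cells without an Il1rl1 UMI was 0.918 to 1.14 for St6galnac3, 0.729 to 1.03 for St6gal1, 0.866 to 1.10 for St8sia4, 0.831 to 1.17 for St3gal1, 0.796 to 1.16 for St3gal4 and 0.901 to 1.43 for St3gal6. It was 0.702 to 1.33 for St8sia6, 0.598 to 1.21 for St8sia1 and 0.726 to 2.26 for St6galnac6, which rest on fewer UMIs. Cells with an Il1rl1 UMI had median UMI counts of 7406 to 19320.5 per library, against 4985 to 15572 in the others.

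B cells, taken by UMIs of Cd79a and Ms4a1 without Cd3e, had St3gal1 at 205, 128, 246, 133 and 139.6 CPM from 74, 19, 30, 5 and 10 UMIs, above the 71.4 to 98.0 of Cxcr6-negative Cd4 cells in every library. Their St3gal4 level was 55.5, 33.8, 8.21, 53.3 and 41.9, below that of Cxcr6-negative Cd4 cells in every library. No test was made on these few cells.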
